A study of Mus musculus with 18 samples.

Results

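The imprinted growth genes Cdkn1c, H19, Igf2, Dlk1, Meg3, Peg3, Plagl1, Grb10, Mest and Ndn were followed through mandibular bone, Meckel's cartilage (MC) and mandibular condylar cartilage, in embryos of the genotypes Fgfr2+/S252W and Fgfr2+/+. These 10 genes were taken by symbol from the 38243 genes counted in each library. All 10 were found. The tissues were captured by laser from frozen sections of 6 female C57BL/6 embryos at embryonic day 16.5 (E16.5), 3 Fgfr2+/S252W and 3 Fgfr2+/+ littermates, which gave 6 groups of 3 libraries and 18 libraries in all. Fgfr2+/S252W embryos are heterozygous for an Apert syndrome substitution in fibroblast growth factor receptor 2, and Fgfr2+/+ embryos lack it. No other allele or treatment is named for either genotype, and every animal shared sex, strain and age. The substitution leaves no mark in counts per gene, so the genotype labels could not be checked from them. Each library held 1 tissue of 1 embryo. The values below are CPM, fragment counts scaled to a common library size with TMM factors, unless another unit is named. Genes were compared with each other only in FPKM, which divides by exon length.

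An imprinted gene is transcribed mainly from the allele inherited from one parent. Many imprinted genes act on embryonic growth, and by and large those expressed from the paternal allele promote it and those expressed from the maternal allele restrain it. Cdkn1c, a maternally expressed inhibitor of cyclin-dependent kinases, lets precursor cells leave the cell cycle and is needed for normal cartilage and bone formation in the mouse embryo. Igf2 encodes the main fetal insulin-like growth factor and shares its imprinting control region with the long noncoding RNA H19, and Dlk1 and Meg3 form a similar pair of a protein and a noncoding RNA. Counts per gene do not tell the parental alleles apart, so total RNA of each gene was measured here, not its imprinting.

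Members lay on 5 chromosomes of GRCm38. Cdkn1c (ENSMUSG00000037664) spans 143458350 to 143461050 on the minus strand of chromosome 7, in the Kcnq1 cluster, and no other annotated gene shared bases with its exons. H19 spans 142575529 to 142578143 and Igf2 142650766 to 142666816 on the same strand, with 72.6 kb between them and 791.5 kb from Igf2 to Cdkn1c. Peg3 (6703892 to 6730421) and Ndn (62348277 to 62349928) lie far from these on chromosome 7. Dlk1 (109452849 to 109463336) and Meg3 (109541001 to 109571726) lie 77.7 kb apart on the plus strand of chromosome 12. Plagl1 lies on chromosome 10 (13090788 to 13131694), Grb10 on chromosome 11 (11930508 to 12038683) and Mest on chromosome 6 (30723547 to 30748455). Counting ignored strand and left out fragments that fell on several genes. Of the exon bases of Mest 27.4% were shared with the antisense gene Copg2, and shares of 9.49% for H19, 8.29% for Meg3, 1.78% for Igf2 and 0.66% for Plagl1 were shared with other genes, mainly small RNAs and antisense transcripts. Fragments from those bases could not be assigned to one gene.

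Several members also carry microRNAs inside their own transcription units. The reference holds 9 mature microRNAs within 4 members, all on the strand of the host, with 9 different seeds. They are shown because the counts of H19, Meg3, Igf2 and Mest describe the host RNA that contains them and not the mature microRNA. The arms of miR-675 lie in an exon of H19 and miR-770-5p in an exon of Meg3, while miR-483-5p and miR-335-5p lie in introns of Igf2 and Mest. The sequences are from RefSeq on GRCm38.p6, 5′ to 3′, and capitals mark the seed, bases 2 to 8.
miR-675-5p, in H19, chr7:142577112-142577133, minus strand: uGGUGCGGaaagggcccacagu
miR-675-3p, in H19, chr7:142577078-142577099, minus strand: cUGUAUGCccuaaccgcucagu
miR-770-5p, in Meg3, chr12:109563710-109563731, plus strand: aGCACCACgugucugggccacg
miR-483-5p, in Igf2, chr7:142654968-142654989, minus strand: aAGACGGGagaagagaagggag
miR-335-5p, in Mest, chr6:30741314-30741336, plus strand: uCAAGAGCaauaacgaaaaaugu

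PLAGL1, the zinc finger protein encoded by Plagl1, binds GC-rich sites. Since Plagl1 is itself a member, the palindrome GGGGCCCC at the core of its consensus was searched for in promoter windows of 250 bases before to 50 bases after each start in RefSeq (GRCm38.p6), in which 8 of the 10 members were matched with 15 windows. Cdkn1c and H19 had no window, so their promoters were not searched. The palindrome reads the same on both strands. It was present in 1 of the 15 windows, that of Peg3, and in 1.08% of all 32851 windows. The palindrome of the cAMP response element, TGACGTCA, which was chosen after the windows had been read, was present in 2 of the 15, those of Peg3 and of the first start of Meg3, and in 1.79% of all windows. The motifs do not overlap. CpG pairs numbered between 1 and 45 in the members' windows, with a median of 13 against 7 over all windows. The Peg3 and Meg3 windows are printed because these are the member promoters that hold the motifs and because both genes belong to the members that differed most between tissues. Capitals mark the motifs, and a match is only a match of letters.
Peg3, chr7:6730370-6730669, minus strand: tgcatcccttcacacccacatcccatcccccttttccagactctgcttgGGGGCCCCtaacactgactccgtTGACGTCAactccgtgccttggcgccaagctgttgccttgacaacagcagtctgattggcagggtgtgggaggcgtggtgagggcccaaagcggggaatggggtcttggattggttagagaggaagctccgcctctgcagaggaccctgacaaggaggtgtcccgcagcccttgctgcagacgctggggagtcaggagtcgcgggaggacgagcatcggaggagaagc
Meg3, chr12:109540746-109541045, plus strand: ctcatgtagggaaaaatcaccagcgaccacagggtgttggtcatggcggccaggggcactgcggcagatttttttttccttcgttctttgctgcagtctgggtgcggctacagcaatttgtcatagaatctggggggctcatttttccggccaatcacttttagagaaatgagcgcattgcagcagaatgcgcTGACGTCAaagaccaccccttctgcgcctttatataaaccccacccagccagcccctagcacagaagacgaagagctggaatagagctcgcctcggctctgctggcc

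Between 8218548 and 15585778 fragments were counted per library, of which 19.4% to 38.1% came from mitochondrial genes and 5.58% to 39.4% from Gm42418. The members together took 0.709% to 2.31%. Gm42418 separated the tissues, at 5.58% to 9.33% in bone, 10.9% to 20.2% in condylar cartilage and 24.1% to 39.4% in MC. TMM factors were 1.20 to 1.48 in bone, 0.896 to 1.27 in condylar cartilage and 0.491 to 1.09 in MC. The part of this make-up in the tissue differences was not tested. A gene was tested if its level was over 1 FPKM in 50% or more of the libraries, as 11469 were. All 10 members passed, 8 of them in every library. Dlk1 and Meg3 passed in exactly 9 of the 18 libraries, 6 of these from MC. The remaining bone and condylar libraries in which they passed were Fgfr2+/+ libraries, among them bone replicate 1 for both genes and bone replicate 2 for Dlk1. A difference of these genes from MC, and a lower value in Fgfr2+/S252W bone or condylar cartilage, was thus partly built into the filter, and counts are also given for the other 8 members. Bone was rich in osteoblast markers (7 of 7 matched), with a sum between 16813 and 34387 CPM against 1614 to 4021 in MC. Condylar cartilage had 5018 to 12340 CPM of them, except for Fgfr2+/S252W condylar replicate 3, which had 19546 CPM, inside the range of bone. Of the chondrocyte markers (9 of 9 matched) condylar cartilage held 31809 to 39086 CPM and MC only 374 to 8971, so MC libraries carried the markers of their label at a far lower level than condylar cartilage. Fgfr2+/+ MC replicate 1 stood apart with a chondrocyte sum of 374 CPM, near the 91.7 to 388 CPM of bone, where the other 5 MC libraries had at least 2001, up to 8971 in Fgfr2+/S252W MC replicate 1. Values without Fgfr2+/+ MC replicate 1 are given for the main comparisons that use it. Skeletal muscle markers (10 of 10 matched, with Tnnc2 at 0 in every bone and condylar library) summed to 901, 867 and 161 CPM in Fgfr2+/+ bone replicates 1, 2 and 3 and to 57.9, 69.3 and 163 CPM in Fgfr2+/S252W bone.

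Most members differed between tissues in Fgfr2+/+ embryos. Differences were tested with limma on voom-transformed counts of all 18 libraries, with Benjamini-Hochberg adjustment over the 11469 genes and a threshold of 0.05. In bone 7 of the 10 members were lower than in MC and 0 were higher, where 34% of all genes passed, 15.9% as lower and 18.1% as higher. Against condylar cartilage 6 members were lower in bone and 1, Mest, was higher, where 37.4% of all genes passed, 18% as lower and 19.4% as higher. Between the cartilages 4 members were higher in condylar cartilage and 4 were lower, where 45% of all genes passed, 22.9% as higher and 22.1% as lower. This count of 8 was 5 without Fgfr2+/+ MC replicate 1, where 4996 of 11272 genes passed. It was also 5 without Fgfr2+/+ condylar replicate 3, where 4807 of 11303 genes did. In both fits Dlk1 and Meg3 were not kept by the filter. Without Fgfr2+/+ MC replicate 1, bone was lower than MC in 6 of the 8 members kept, where 4365 of 11272 genes passed in either direction. They were Cdkn1c (-0.58, limma adjusted p = 0.0132), H19 (-1.49), Igf2 (-1.47), Peg3 (-2.52), Plagl1 (-1.56) and Ndn (-1.55), while Grb10 (0.059) and Mest (0.55) did not pass. The median log2 difference of the 10 members was -1.27 for bone minus MC, -0.58 for bone minus condylar cartilage and -0.37 for condylar cartilage minus MC, beside 0.02, 0.0047 and 0.02 for all genes. Over the 8 members other than Dlk1 and Meg3 it was -1.24, -1.03 and 0.22, so that the sign of the last turned with those 2 genes. Without Dlk1 and Meg3, 6 of 8 members were lower in bone than in MC, 6 were lower and 1 higher in bone than in condylar cartilage, and 4 were higher and 2 lower in condylar cartilage than in MC. Among the 11469 genes, tissues without overlap in Fgfr2+/+ libraries were common. Bone lay wholly above MC in 2483 and wholly below it in 2156, and above condylar cartilage in 2999 and below it in 2938. Condylar cartilage lay wholly above MC in 2817 and wholly below it in 2639. The plot of CPM by library shows the levels of the members.

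**Figure D1:**
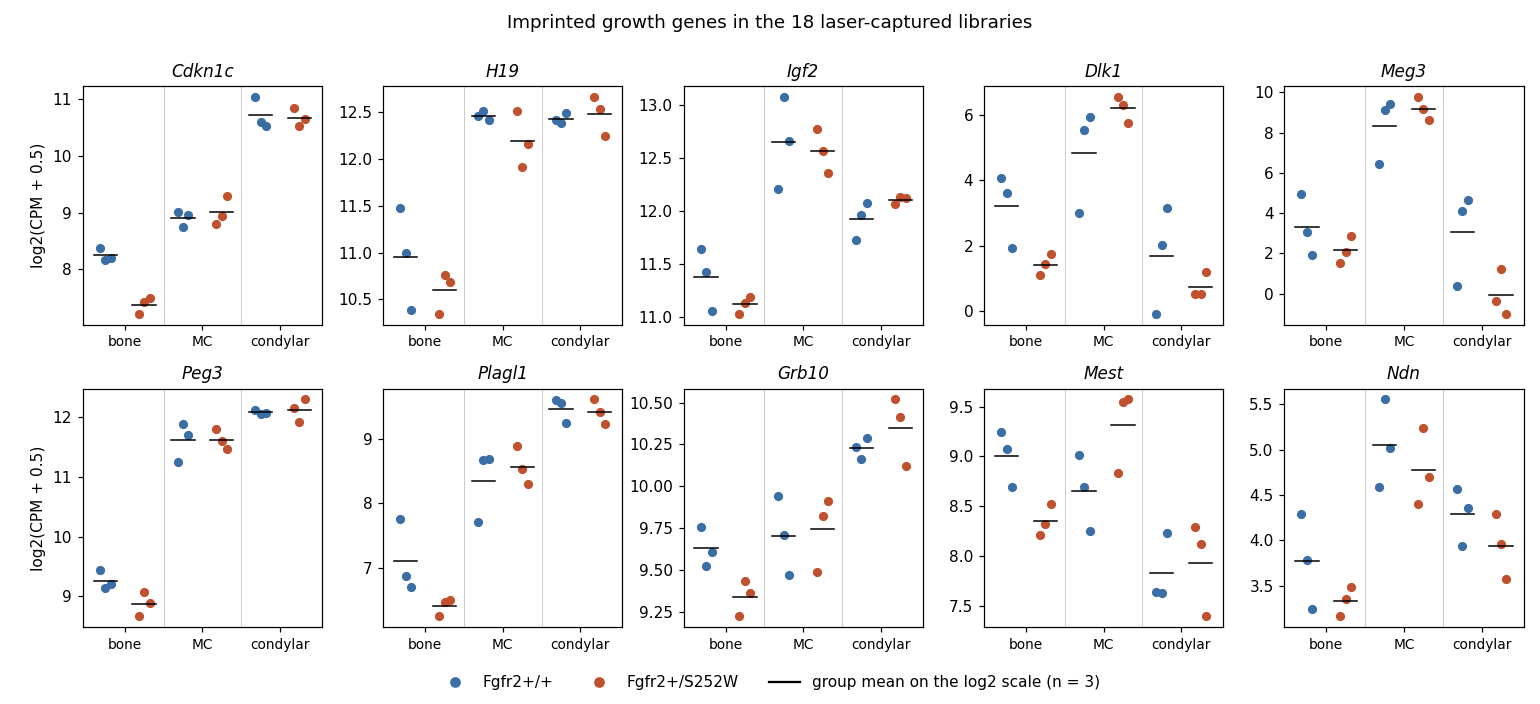
Each panel plots log2(CPM + 0.5) of 1 member on its own vertical scale in bone, Meckel's cartilage (MC) and condylar cartilage, with 1 point per library (n = 3 per group, replicates 1 to 3 from left to right), blue for Fgfr2+/+ and orange for Fgfr2+/S252W, and a bar at the group mean. Cdkn1c rises from bone to MC to condylar cartilage and its orange points lie below the blue ones in bone, Peg3 is lowest in bone, and Dlk1 and Meg3 are highest in MC, where the first Fgfr2+/+ library sits low.

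Cdkn1c had the widest step between the cartilages among members that were higher in condylar cartilage. Fgfr2+/+ bone had 333, 287 and 292 CPM, MC 518, 427 and 495, and condylar cartilage 2113, 1550.1 and 1472. The 3 tissues did not overlap. Bone was lower than MC (log2 difference -0.66, SE 0.16, adjusted p = 0.00365 by limma) and lower than condylar cartilage (log2 difference -2.47, SE 0.16, adjusted p = 4.27e-10 by limma), which is 5.56-fold. Condylar cartilage exceeded MC by 1.82 on the log2 scale (SE 0.16, adjusted p = 2.63e-08 by limma), and by 1.91 without Fgfr2+/+ MC replicate 1. With no filter, bone minus MC did not pass (-0.56, limma adjusted p = 0.0505). Per length, Cdkn1c was the second most abundant member in condylar cartilage, at 887 ± 181 FPKM (SD, n = 3), and the fourth in bone, at 158 ± 13.1 FPKM.

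H19, the noncoding RNA, was the most abundant member per length in every group, at 875 ± 319 FPKM in Fgfr2+/+ bone, 2375 ± 72.0 in MC and 2319 ± 85.1 in condylar cartilage (SD, n = 3). Its CPM were 2847, 2041 and 1336 in Fgfr2+/+ bone, 5626, 5808 and 5466 in MC and 5442, 5333 and 5724 in condylar cartilage. All bone libraries lay below all cartilage libraries, and the cartilages overlapped. Bone was lower than MC (log2 difference -1.50, SE 0.21, adjusted p = 2.55e-05 by limma) and lower than condylar cartilage (log2 difference -1.47, SE 0.21, adjusted p = 1.61e-05 by limma). Condylar cartilage minus MC was -0.03 with a 95% interval of -0.48 to 0.41, and its sign changed with the filter.

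Igf2, the growth factor, was highest in MC. Its CPM were 3197, 2755 and 2128 in Fgfr2+/+ bone, 4729.9, 8614 and 6460.2 in MC and 3388, 3992 and 4305 in condylar cartilage. The tissues did not overlap. Bone was lower than MC (log2 difference -1.28, SE 0.18, adjusted p = 3.78e-05 by limma) and lower than condylar cartilage (log2 difference -0.54, SE 0.18, adjusted p = 0.0252 by limma), and condylar cartilage was lower than MC (log2 difference -0.74, SE 0.19, adjusted p = 0.00281 by limma, and -0.91 without Fgfr2+/+ MC replicate 1). The second of these did not pass with edgeR (adjusted p = 0.0868) or in the Fgfr2+/+ libraries alone (limma adjusted p = 0.0938).

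Grb10 encodes an adaptor that binds the receptors of insulin and insulin-like growth factors. Fgfr2+/+ bone had 867, 738 and 782 CPM, MC 983, 836 and 709, and condylar cartilage 1205, 1145 and 1251. By the ratio of the highest to the lowest mean, 1201 and 795 CPM, it was the member that varied least over tissues. Bone and MC overlapped, with a log2 difference of -0.08 (95% interval -0.38 to 0.23). Condylar cartilage was above both, by 0.60 on the log2 scale over bone (SE 0.15, adjusted p = 0.00286 by limma) and by 0.52 over MC (SE 0.15, adjusted p = 0.00695 by limma), or 0.67 without Fgfr2+/+ MC replicate 1.

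Dlk1, which encodes a transmembrane protein with epidermal growth factor repeats, was the least abundant member per length in MC and among the lowest 2 elsewhere. Its CPM were 16.3, 11.7 and 3.33 in Fgfr2+/+ bone, 7.53, 46.1 and 60.7 in MC and 0.451, 3.57 and 8.39 in condylar cartilage, from as few as 6 fragments. MC replicate 1, the library low in chondrocyte markers, lay within the range of the other tissues. Condylar cartilage was lower than MC (log2 difference -3.32, SE 0.97, adjusted p = 0.00881 by limma). The difference between bone and MC did not pass (log2 difference -1.48, SE 0.68, adjusted p = 0.0972 by limma, though -1.86 with adjusted p = 0.0413 by edgeR), nor did that between bone and condylar cartilage (1.84, SE 1.00, adjusted p = 0.158 by limma).

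Meg3, the noncoding RNA of the same cluster, separated MC from the other tissues most widely of all members. Its CPM were 30.4, 7.92 and 3.33 in Fgfr2+/+ bone, 87.3, 559 and 686 in MC and 0.827, 16.6 and 24.8 in condylar cartilage. All MC libraries, the one low in chondrocyte markers included, lay above all others. Bone was lower than MC (log2 difference -5.09, SE 0.90, adjusted p = 0.000273 by limma) and so was condylar cartilage (log2 difference -5.54, SE 1.03, adjusted p = 0.000185 by limma). Bone and condylar cartilage overlapped, and the sign of their difference changed with the setting. Without Fgfr2+/+ MC replicate 1 neither Dlk1 nor Meg3 passed the filter, so no value was fitted without it. The condylar library lowest in Meg3 was also the one lowest in muscle markers, at 11.6 CPM against 271 and 545, and the part of these in its level was not tested.

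Peg3, a paternally expressed zinc finger gene, had the smallest p of the members in both comparisons with bone. Fgfr2+/+ bone had 697, 562 and 592 CPM, MC 2429, 3777 and 3336, and condylar cartilage 4473, 4267 and 4304. The 3 tissues did not overlap. Bone was lower than MC (log2 difference -2.36, SE 0.16, adjusted p = 1.13e-08 by limma) and lower than condylar cartilage (log2 difference -2.82, SE 0.17, adjusted p = 1.43e-10 by limma), a 7.07-fold difference. Condylar cartilage exceeded MC by 0.47 on the log2 scale (SE 0.17, adjusted p = 0.0268 by limma). This did not pass without Fgfr2+/+ MC replicate 1 (0.33, limma adjusted p = 0.0945) or with edgeR (0.45, adjusted p = 0.0826).

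Plagl1, the zinc finger transcription factor, followed a similar order. It had 215, 116 and 103 CPM in Fgfr2+/+ bone, 209, 404 and 409 in MC and 772, 749 and 606 in condylar cartilage. Bone and MC overlapped through MC replicate 1. Bone was lower than MC (log2 difference -1.22, SE 0.26, adjusted p = 0.00122 by limma) and lower than condylar cartilage (log2 difference -2.37, SE 0.25, adjusted p = 3.23e-07 by limma). Condylar cartilage was higher than MC by 1.14 on the log2 scale (SE 0.25, adjusted p = 9.16e-04 by limma), and by 0.83 without Fgfr2+/+ MC replicate 1.

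Mest, a paternally expressed gene for a protein of the alpha/beta hydrolase fold, was the member that was higher in bone than in condylar cartilage. Its CPM were 607, 539 and 414 in Fgfr2+/+ bone, 517, 415 and 305 in MC and 199, 197 and 299.6 in condylar cartilage. Bone exceeded condylar cartilage by 1.18 on the log2 scale (SE 0.24, adjusted p = 6.91e-04 by limma), while bone and MC overlapped (0.34, 95% interval -0.17 to 0.85). Condylar cartilage was lower than MC (log2 difference -0.84, SE 0.25, adjusted p = 0.00982 by limma), a call that was lost without Fgfr2+/+ MC replicate 1 (-0.61, limma adjusted p = 0.0657). Copg2, with which Mest shares exon bases, had mean levels of 27.4 CPM in bone, 30.3 in MC and 15.2 in the condylar libraries of Fgfr2+/+ embryos. Ndn, which encodes a MAGE family protein that restrains cell growth, had 19.1, 13.3 and 8.98 CPM in Fgfr2+/+ bone, 23.5, 46.5 and 31.9 in MC and 23.1, 14.9 and 20.0 in condylar cartilage. Its log2 difference was -1.26 for bone minus MC (SE 0.30, adjusted p = 0.00295 by limma) and passed in neither comparison with condylar cartilage (limma adjusted p = 0.153 and 0.0536), though without Fgfr2+/+ MC replicate 1 condylar cartilage was lower than MC (log2 difference -0.97, limma adjusted p = 0.0129), as it was with edgeR (-0.80, adjusted p = 0.0399) and DESeq2 (-0.81, adjusted p = 0.0278).

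**Figure D2:**
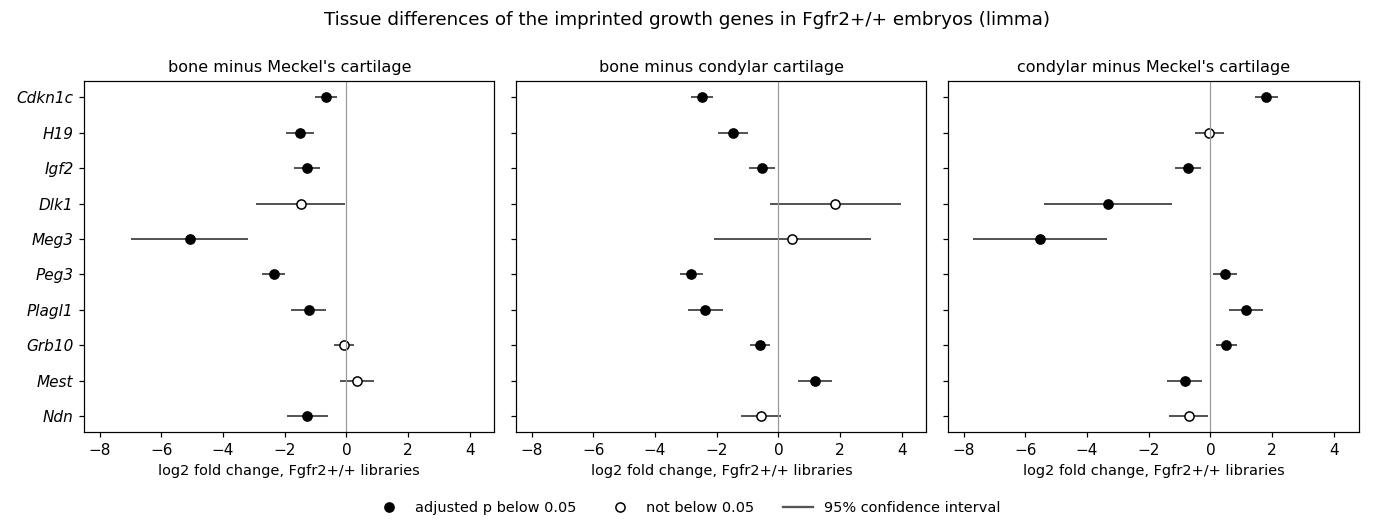
Log2 fold changes between tissues in Fgfr2+/+ embryos from limma (horizontal axis) for the 10 members (vertical axis), with bars for the 95% confidence interval and filled points for an adjusted p below 0.05. Filled points lie left of 0 for 7 members in bone minus MC, Mest alone lies right of 0 among filled points in bone minus condylar cartilage, and condylar minus MC has 4 on each side, with Meg3 farthest left at -5.54.

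In mandibular bone the fitted value of every one of the 10 members was lower in Fgfr2+/S252W than in Fgfr2+/+ embryos, where 50.1% of all genes were lower, and 1 of them, Cdkn1c, passed the threshold. Of all genes 0.0872% passed, 0.0523% as lower. At an unadjusted p below 0.05, 5 members were lower and 0 higher, where 4.12% of all genes were lower and 4% higher. One of the 5 was Dlk1, and of the 8 members other than Dlk1 and Meg3, 4 were lower. In 6 members all 3 Fgfr2+/S252W libraries lay below all 3 Fgfr2+/+ libraries, which held for 9.7% of all genes. The median log2 fold change of the members was -0.55 (-0.42 without Dlk1 and Meg3), beside -0.00074 for all genes. The members were chosen with earlier results of these data known, so these counts are not independent of the data. The members varied more among the 3 Fgfr2+/+ bone libraries (median SD of 0.42 on the log2 scale, against 0.24 for all genes) than among the Fgfr2+/S252W ones (0.16 for both). In bulk tissue, fewer cells of a type and less RNA per cell cannot be told apart.

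Cdkn1c had 148, 171 and 181 CPM in Fgfr2+/S252W bone and 333, 287 and 292 in Fgfr2+/+ bone, from 2895 to 5176 fragments per library. The groups were separated by a gap wider than the range within either of them. The mean fell from 304 ± 25.3 to 167 ± 16.7 CPM (SD, n = 3), or 1.83-fold. The fitted log2 difference was -0.87 with a 95% interval of -1.20 to -0.54 (SE 0.16, adjusted p = 0.0452 by limma). Among the 11469 genes its p ranked sixth. The size held between -0.93 and -0.79 when each of the 18 libraries was left out in turn, but the adjusted p lay between 0.0162 and 0.390, the latter without Fgfr2+/+ bone replicate 1, and was below 0.05 in 8 of these 18 fits. Cdkn1c did not pass with edgeR (log2 fold change -0.87, adjusted p = 0.317), with no filter (-0.81, limma adjusted p = 0.147), without mitochondrial genes and Gm42418 (limma adjusted p = 0.0517) or with replicate numbers as a block (limma adjusted p = 0.0508).

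Muscle markers moved with genotype in bone through Fgfr2+/+ replicates 1 and 2. Replicate 3 had 161 CPM of them, inside the range of 57.9 to 163 CPM of Fgfr2+/S252W bone, and 20.4% mitochondrial counts against 36.0% and 34.8% in replicates 1 and 2. Its Cdkn1c level of 292 CPM was close to the 287 CPM of replicate 2. When replicates 1 and 2 were both left out, a setting chosen after seeing the data that leaves 1 Fgfr2+/+ bone library and assumes that it varies as the other groups do, the log2 fold change of Cdkn1c was -0.82 (limma adjusted p = 1.00, with 0 of 11413 genes passing). In that setting H19 (0.21), Igf2 (0.06), Meg3 (0.23) and Ndn (0.09) turned positive, Dlk1 was not kept by the filter, and Peg3 (-0.34), Plagl1 (-0.29), Grb10 (-0.27) and Mest (-0.35) stayed negative. Without replicate 3 instead, Cdkn1c was at -0.90 (limma adjusted p = 0.0284), H19 at -0.63, Dlk1 at -2.66 and Meg3 at -2.01, and 91 genes passed. Sums of 5 other marker lists did not overlap between genotypes in bone. Red blood cell markers (6 of 6 matched, none at 0 in all bone libraries) summed to 1257 to 1506 CPM in Fgfr2+/+ and 315 to 597 CPM in Fgfr2+/S252W bone, and osteoclast markers (6 of 6 matched, none at 0 in all bone libraries) to 842 to 1125 and 1618 to 2248 CPM. In the same order of genotypes, macrophage markers (5 of 5 matched) had a median sum of 79.8 and 123 CPM, chondrocyte markers summed to 91.7 to 239 and 288 to 388 CPM, and pericyte and smooth muscle markers (6 of 6 matched) to 169 to 206 and 147 to 153 CPM. The members of these 3 lists did not all go the way of the sum. Of the macrophage markers tested 1, Cd68, was fitted higher in Fgfr2+/S252W bone and 2 lower (median log2 fold change -1.68), of the chondrocyte markers 5 higher and 3 lower, and of the pericyte and smooth muscle markers 2 higher and 3 lower. The make-up of the bone libraries also moved with genotype without overlap. Gm42418 took 8.57% to 9.33% of the counts in Fgfr2+/+ and 5.58% to 6.49% in Fgfr2+/S252W bone, and TMM factors were 1.20 to 1.42 in Fgfr2+/+ against 1.46 to 1.48 in Fgfr2+/S252W bone. Total counts were 10966635 to 12623521 against 12823262 to 15585778. The part of these and of the markers in the members' differences was not tested.

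**Figure D3:**
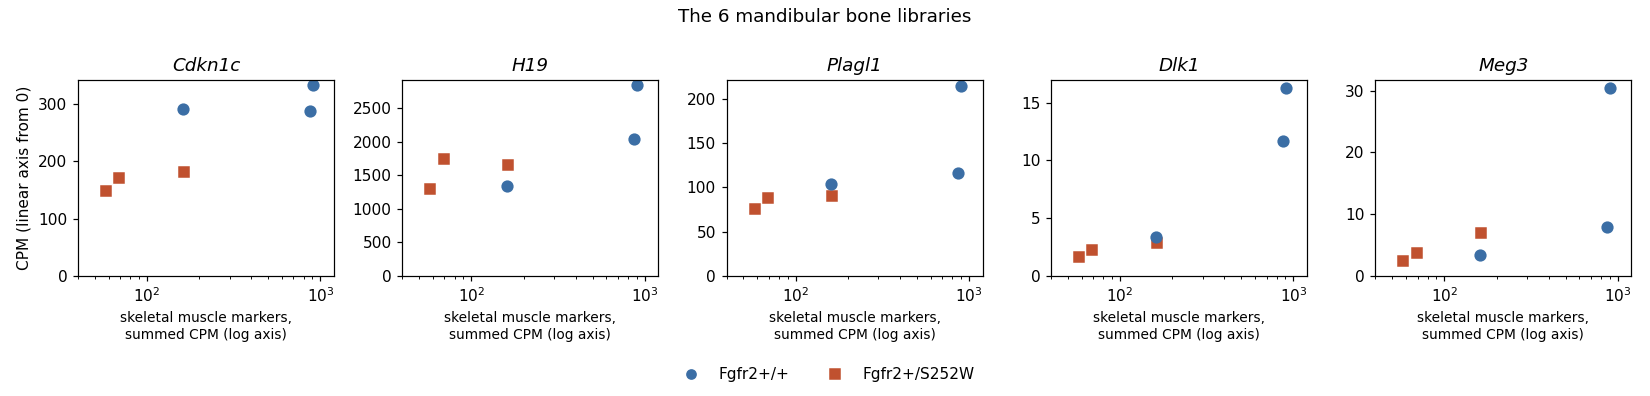
CPM of 5 members in the 6 bone libraries (vertical axes, linear from 0) against the summed CPM of 10 skeletal muscle markers in the same library (horizontal axis, log scale), with circles for Fgfr2+/+ and squares for Fgfr2+/S252W. At a muscle sum of 161 the third Fgfr2+/+ library has 292 CPM of Cdkn1c, above all squares, but its H19, Dlk1 and Meg3 lie near or among the squares.

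Dlk1, kept by the filter through the Fgfr2+/+ bone replicates in which it was high, was measured with little precision in bone. Its CPM were 1.64, 2.22 and 2.84 in Fgfr2+/S252W and 16.3, 11.7 and 3.33 in Fgfr2+/+ bone, from 32 to 243 fragments. The genotypes did not overlap, but Fgfr2+/+ replicate 3 lay close to the Fgfr2+/S252W libraries. The log2 fold change was -1.91 (SE 0.90, adjusted p = 0.610 by limma). Meg3 had 2.35, 3.77 and 6.90 CPM in Fgfr2+/S252W and 30.4, 7.92 and 3.33 in Fgfr2+/+ bone, with overlap and a log2 fold change of -1.20 (SE 1.22, adjusted p = 0.884 by limma).

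Plagl1, Mest, Peg3 and Grb10 were the other members without overlap in bone. Plagl1 had 75.5, 87.8 and 90.5 CPM against 215, 116 and 103 in Fgfr2+/+ bone (log2 fold change -0.70, SE 0.26, adjusted p = 0.473 by limma). Mest had 296, 319.7 and 367 CPM against 607, 539 and 414 (-0.65, SE 0.24, adjusted p = 0.472 by limma). Peg3 had 405, 538 and 471 CPM against 697, 562 and 592 (-0.39, SE 0.16, adjusted p = 0.537 by limma). In all of these the highest Fgfr2+/S252W library came close to the lowest Fgfr2+/+ library. Grb10 had 598, 692 and 659.8 CPM against 867, 738 and 782 (-0.29, SE 0.15, adjusted p = 0.631 by limma). With sample quality weights, which give noisier libraries less influence, Dlk1 (limma adjusted p = 0.0179), Plagl1 (0.0178) and Mest (0.0103) passed beside Cdkn1c, while 589 of all genes passed.

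H19, Igf2 and Ndn overlapped between genotypes in bone. H19 had 1302, 1741 and 1649 CPM in Fgfr2+/S252W against 2847, 2041 and 1336 in Fgfr2+/+ bone (log2 fold change -0.36, SE 0.21, adjusted p = 0.711 by limma). Igf2 had 2091, 2251 and 2334 against 3197, 2755 and 2128 CPM (-0.26, SE 0.18, adjusted p = 0.795 by limma). Ndn had 8.45, 9.75 and 10.7 against 19.1, 13.3 and 8.98 CPM (-0.44, SE 0.30, adjusted p = 0.780 by limma). In each of them Fgfr2+/+ replicate 1 was the highest bone library and replicate 3 lay inside the Fgfr2+/S252W range.

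In MC 0 of 10 members passed between genotypes with limma, as did 0% of all genes, and 2 members were higher at an unadjusted p below 0.05, where 8.1% of all genes were. The genotypes overlapped in every member, where 6.71% of all genes lay wholly above and 6.67% wholly below. edgeR, where 90 of 11469 genes passed, and DESeq2 also called 0 members. Over the 12 alternative settings, 0 to 423 of all genes passed in MC. Dlk1 had 92.6, 77.7 and 52.7 CPM in Fgfr2+/S252W and 7.53, 46.1 and 60.7 in Fgfr2+/+ MC, a log2 fold change of 1.66 (SE 0.58, adjusted p = 0.195 by limma). The groups overlapped, and the lowest value came from replicate 1, the library low in chondrocyte markers. Mest had 457, 745 and 761 against 517, 415 and 305 CPM (0.64, SE 0.25, adjusted p = 0.236 by limma, and 0.85 without that library, limma adjusted p = 0.194). Cdkn1c had 447, 489 and 628 CPM against 518, 427 and 495. Its log2 fold change of 0.10 had a 95% interval of -0.23 to 0.44, which does not reach the decrease fitted in bone, and it was 0.18 without Fgfr2+/+ MC replicate 1. The remaining members lay between -0.28 for H19 and 0.94 for Meg3. The median over members was 0.07, beside 0.03 over all genes, and without Fgfr2+/+ MC replicate 1 Peg3 (-0.15) and Plagl1 (-0.079) changed sign. Muscle markers summed to 31.0, 1037 and 109 CPM in Fgfr2+/+ and 93.3, 45.7 and 322 CPM in Fgfr2+/S252W MC. Osteoclast markers summed to 87.7 to 247 and 59.7 to 74.2 CPM and pericyte and smooth muscle markers to 120 to 223 and 238 to 324 CPM, without overlap, and all 8 chondrocyte markers tested were fitted higher in Fgfr2+/S252W MC, with a median log2 fold change of 1.14. The part of these in the members' values was not tested. Without Fgfr2+/S252W MC replicate 1, Dlk1 and Meg3 were not kept, Mest was at 0.90 (limma adjusted p = 0.301), Cdkn1c at 0.22 and Peg3 at -0.079, a changed sign.

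In condylar cartilage 0 of 10 members and 0% of all genes passed with limma, 0 members were past an unadjusted p of 0.05, where 3.06% of all genes were, and edgeR and DESeq2 called 0 members. Cdkn1c had 1834, 1473 and 1605 CPM in Fgfr2+/S252W and 2113, 1550.1 and 1472 in Fgfr2+/+ condylar cartilage, with a log2 fold change of -0.05 and a 95% interval of -0.38 to 0.27. The genotypes overlapped in every member, where 4.59% of all genes lay wholly above and 5.17% wholly below. Igf2 had 4274, 4484 and 4457 against 3388, 3992 and 4305 CPM, the largest fitted increase (0.18, SE 0.19, adjusted p = 0.998 by limma). Meg3 had 0.268, 1.80 and 0 CPM against 0.827, 16.6 and 24.8, and the library without a fragment allows up to 0.385 CPM, the level of 3 fragments. Fgfr2+/+ replicate 1 lay among the Fgfr2+/S252W libraries, and the log2 fold change was imprecise (-4.19, SE 2.63, adjusted p = 0.998 by limma). In the same order the muscle markers of these libraries summed to 21.9, 15.8 and 6.80 against 11.6, 271 and 545 CPM. Connective tissue markers (8 of 8 matched) summed to 1269 to 1369 CPM in Fgfr2+/S252W and 1027 to 1234 CPM in Fgfr2+/+ condylar cartilage. Of those tested 4 were fitted higher in Fgfr2+/S252W and 1 lower. Mitochondrial shares were 23.62% to 27.7% in Fgfr2+/S252W and 19.4% to 23.55% in Fgfr2+/+ condylar cartilage. Neither overlapped between genotypes. The part of these and of the muscle markers was not tested. Without Fgfr2+/S252W condylar replicate 3, which was high in osteoblast markers, 0 members passed, Cdkn1c was at -0.040, and Peg3 (-0.054) and Plagl1 (0.045) changed sign. The medians were -0.0047 over members and -0.01 over all genes.

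**Figure D4:**
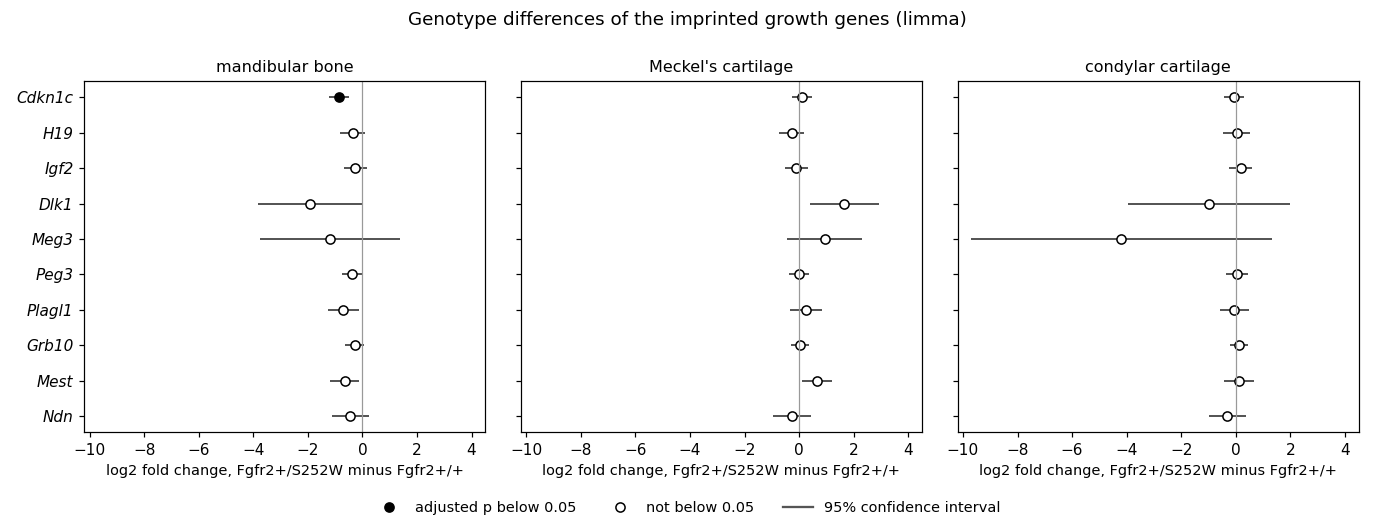
Log2 fold changes of Fgfr2+/S252W minus Fgfr2+/+ libraries from limma (horizontal axis) for the 10 members (vertical axis) in each tissue, with bars for the 95% confidence interval and filled points for an adjusted p below 0.05. All 10 points lie left of 0 in bone and Cdkn1c there, at -0.87, is the only filled point, while points lie on both sides of 0 in the cartilages.

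Whether the genotype difference itself differed between tissues was tested with interaction contrasts. Between bone and MC the fitted interaction was negative in 10 of 10 members, where it was negative in 50.3% of all genes, and 0 members passed, where 0.0523% of all genes did. At an unadjusted p below 0.05 there were 4 members, where 5.79% of all genes were negative at that level, and 3 of the 8 members other than Dlk1 and Meg3. These were Cdkn1c (-0.97, SE 0.23, adjusted p = 0.138 by limma), Mest (-1.30, SE 0.35, adjusted p = 0.197 by limma), Dlk1 (-3.57, SE 1.07, adjusted p = 0.244 by limma) and Plagl1 (-0.95, SE 0.37, adjusted p = 0.368 by limma). In this contrast Cdkn1c passed with DESeq2 (adjusted p = 0.0191) and Mest with sample quality weights (-1.57, limma adjusted p = 0.0448), settings in which 94 and 10 of the 11469 genes passed, against 6 with limma as above. Without Fgfr2+/+ MC replicate 1, Cdkn1c was at -1.04 (limma adjusted p = 0.116), Mest at -1.49 (0.116) and Plagl1 at -0.61 (0.495, with an unadjusted p of 0.0714). In that fit Igf2 (0.042) and Ndn (0.11) turned positive, 6 of the 8 members kept were negative, and Dlk1 and Meg3 were not kept. Between bone and condylar cartilage Cdkn1c had an interaction of -0.82 (SE 0.22, unadjusted p = 0.00149 and adjusted p = 1.00, limma), and 0 members and 0% of all genes passed. The fitted value was negative in 9 of 10 members there, where it was in 48.5% of all genes, and Cdkn1c and Mest (-0.78, SE 0.35) were the 2 members at an unadjusted p below 0.05, where 1.69% of all genes were negative at that level. Between the cartilages 0 members and 0% of all genes passed (limma adjusted p from 0.561 to 0.974). These contrasts share the bone libraries or the MC libraries with the comparisons above, and the members were chosen with earlier results of these data known.

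Ratios within a library do not depend on its total count. H19 per length exceeded Igf2 in every library, by 1.46 to 2.07 times in Fgfr2+/+ and 1.45 to 1.80 times in Fgfr2+/S252W bone. In condylar cartilage the ratio was 3.09 to 3.73 in Fgfr2+/+ and 2.52 to 3.52 in Fgfr2+/S252W embryos, and in MC 1.57 to 2.76 and 1.47 to 2.02. The genotypes overlapped in each tissue, and Fgfr2+/+ condylar cartilage lay above all Fgfr2+/+ bone and MC libraries. Meg3 per length exceeded Dlk1 in all 6 MC libraries, where the ratio was 3.48 to 3.74 in Fgfr2+/+ and 2.28 to 2.93 in Fgfr2+/S252W embryos without overlap. The Fgfr2+/+ MC library that stood apart kept this ratio, at 3.58, although both of its genes were low there. In bone and condylar cartilage the ratio lay between 0 and 1.43.

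Cdkn1c was also set against its relatives Cdkn1a and Cdkn1b, which encode the other inhibitors of the CIP/KIP family. Cdkn1a had 172 CPM in Fgfr2+/+ and 164 CPM in Fgfr2+/S252W bone on average, a log2 fold change of -0.07 (95% interval -0.39 to 0.26), and Cdkn1b had 18.9 and 18.6 (-0.01, 95% interval -0.50 to 0.47). Per length, the ratio of Cdkn1c to Cdkn1a was 2.44, 2.15 and 1.64 in Fgfr2+/+ and 0.994, 1.29 and 1.25 in Fgfr2+/S252W bone, without overlap. The ratio was higher in the cartilages, at 5.98 to 11.1 in condylar cartilage and 13.8 to 27.6 in MC over both genotypes. Unlike Cdkn1c, Cdkn1a was higher in bone than in MC, by 2.49 on the log2 scale (SE 0.20, adjusted p = 1.06e-07 by limma). Of 19 partner genes (receptors and RNA binders of the insulin-like growth factors, cyclins, their kinases and inhibitors, and relatives of Grb10) 18 were kept, and 0 passed between genotypes in any tissue with limma. At an unadjusted p below 0.05, 5 were higher and 1 was lower in Fgfr2+/S252W bone, where 4% and 4.12% of all genes were, 4 were lower in MC, where 7.25% of all genes were, and 4 were higher in condylar cartilage, where 1.56% of all genes were. Igf2r, the receptor that clears Igf2 and is itself imprinted, was chosen after its values were seen and averaged 354 CPM in Fgfr2+/+ and 509.6 CPM in Fgfr2+/S252W bone (log2 fold change 0.54, SE 0.15, adjusted p = 0.263 by limma). Between Fgfr2+/+ tissues 2 of the 18 partners were higher and 7 lower in bone than in MC (34% of all genes passed), 5 higher and 5 lower in bone than in condylar cartilage (37.4%), and 5 higher and 8 lower in condylar cartilage than in MC (45%).

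**Figure D5:**
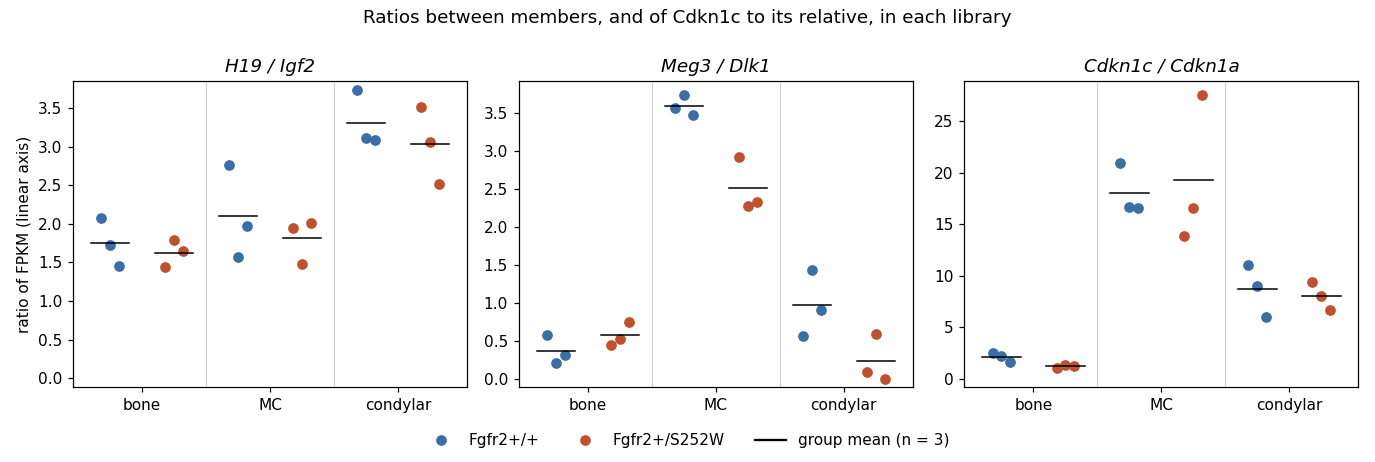
Ratios of FPKM within each library (vertical axes, linear) in bone, Meckel's cartilage (MC) and condylar cartilage, with 1 point per library, blue for Fgfr2+/+ and orange for Fgfr2+/S252W, and bars for group means (n = 3). H19 over Igf2 is highest in condylar cartilage, Meg3 over Dlk1 exceeds 2 only in MC, and Cdkn1c over Cdkn1a is lower in Fgfr2+/S252W than in Fgfr2+/+ bone.

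A list of 49 other imprinted genes gave the surroundings of these members. Kcnq1ot1, Zfp264, Snrpn, Snurf and Peg13 of this list were not matched by symbol. Of the listed genes 27 passed the filter, and 0 passed between genotypes in any tissue with limma. In bone 4 were lower and 1 was higher at an unadjusted p below 0.05, where 4.12% and 4% of all genes were, and their median log2 fold change was -0.08. In MC 5 were higher, where 8.1% of all genes were, with a median of 0.34. In condylar cartilage 1 was higher and 2 were lower, where 1.56% and 1.5% of all genes were, with a median of -0.04. Of the cluster of Cdkn1c, the listed neighbours matched by symbol were low in bone. Kcnq1ot1 was not matched, so its level was not measured. Kcnq1 had mean levels of 1.14 and 1.20 CPM in Fgfr2+/+ and Fgfr2+/S252W bone, Slc22a18 0.438 and 0.339, Ascl2 0.0844 and 0.204, and Phlda2 0 and 0.0171. Only Tssc4 of these passed the filter, at 7.07 and 5.47 CPM (log2 fold change -0.36, SE 0.32, adjusted p = 0.857 by limma).

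Between Fgfr2+/+ tissues 6 of the 27 were higher and 8 lower in bone than in MC, where 18.1% and 15.9% of all genes were. Against condylar cartilage 3 were higher and 9 lower in bone, where 19.4% and 18% of all genes were, and 5 were higher and 7 lower in condylar cartilage than in MC, where 22.9% and 22.1% were. Zim1, a zinc finger gene beside Peg3, had 30.4, 14.5 and 9.43 CPM in Fgfr2+/+ bone, 148, 356 and 401 in MC and 296, 310.2 and 256 in the condylar libraries. Like its neighbour Peg3 it was lower in bone, with a log2 difference of -4.08 from MC (SE 0.39, adjusted p = 5.23e-07 by limma) and of -4.17 from condylar cartilage (SE 0.38, adjusted p = 5.60e-08 by limma). The genes named here were chosen as those with the smallest p of the list. For bone minus MC, Airn (log2 difference -2.12) and Blcap (-1.63) had the next smallest p, and for bone minus condylar cartilage H13 (-1.40) and Slc38a4 (-1.35), an amino acid transporter gene. H13 (1.86), Slc38a4 (1.88) and Peg10 (1.59) had the smallest p for condylar cartilage minus MC. Rian, a noncoding RNA of the Dlk1 and Meg3 cluster that was chosen after its values were seen, had 96.6, 43.0 and 18.8 CPM in Fgfr2+/+ and 8.19, 10.6 and 15.7 in Fgfr2+/S252W bone, without overlap. As for Meg3, Fgfr2+/+ replicate 1 was the highest and replicate 3 the lowest of the Fgfr2+/+ bone libraries.

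The genes whose pattern over the 18 libraries was most like that of Cdkn1c were Sppl2b, Cyp26b1, Capn6, Ldlrad3 and Slc44a2. Likeness was the mean absolute difference of log2 CPM after centring each gene, and it lay between 0.27 and 0.33 for these 5. The nearest member was Plagl1, at 0.38, which ranked 14 among all genes. For H19 the most alike genes were Irs1, Ndrg2, Fzd8, Sertad4 and Smtn, at 0.25 to 0.29, and the nearest member was Igf2, at 0.40 and rank 63. Peg3 had Plagl1 as its nearest member, at 0.35 and rank 3, and the nearest member of Meg3 was Dlk1, at 1.58 and rank 10. Grb10 and Mest stood apart, with their nearest members at ranks 3723 and 4357. All 18 libraries, and with them the differences between tissues, enter these distances.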

How the data were processed

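RNA was measured in 18 libraries, 3 for each combination of genotype and tissue, with groups and replicate numbers taken from the sample titles. Per the file headers and the study's methods, the authors mapped paired-end reads to mm10 with STAR and deposited raw counts of fragments per gene from featureCounts 1.5.0-p1 on Ensembl GRCm38 release 75, made without strand and without normalization. The submitters' processing notes also name cutadapt, limma and RSEM, without their roles. The RNA had been amplified, so fragments are not independent molecules and floors cover counting error only. Which libraries came from one embryo was read from the sample codes, which the labels do not explain. Every pair of replicates differed by more than sampling noise (chi-square over genes per degree of freedom between 8.97 and 156).

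Tests followed the study's methods with limma 3.58.1 in R 4.3.3. The paper reports more genes between genotypes in mandibular bone at this threshold than the 10 that passed here, and the reason was not tested. They used genes over 1 FPKM (from the library total) in 50% or more of the libraries, TMM factors, voom, 1 mean for each of the 6 groups, eBayes moderation (12 residual and 8.12 prior degrees of freedom) and two-sided p adjusted by Benjamini-Hochberg within each of 9 contrasts. CPM and FPKM in the text were computed from the counts with TMM-scaled totals. edgeR 4.0.16, DESeq2 1.42.0, other filters, scalings, weights, blocks and sets of libraries were alternatives. The members, the gene lists, the markers and the rule for named genes (the members, the Cdkn1c cluster, the 3 smallest p among the other imprinted genes in each tissue comparison, and the 5 genes most like Cdkn1c and H19) were chosen with earlier results of these data known. Of the 38243 genes, 36964 matched a symbol. At 8218548 to 15585778 fragments per library, counting error was small for 8 members and large for Dlk1 and Meg3 outside MC.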

Additional observations from a re-analysis of the deposited data

How the results depend on the processing

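Over the 13 settings other than leaving out 1 library, 626 member values (Cdkn1c in bone not counted) kept direction and side of the threshold, 12 passed only there, 8 no longer passed and 18 changed sign. With each of the 18 libraries left out in turn, 920 kept both, 5 passed only then, 10 no longer passed and 19 changed sign. Causes were not tested.

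In bone 1 member passed, among 10 of 11469 genes. The count was 0 with edgeR, without mitochondrial genes and Gm42418, with no filter and with the replicate block, where 4, 7, 53 and 7 genes passed, and 4 with quality weights, where 589 did. In the settings added after seeing the data it was 3 with the replicate block in bone libraries alone, where 554 of 12322 genes passed, and 0 without Fgfr2+/+ bone replicates 1 and 2. The log2 fold change of Cdkn1c in bone was -0.87 with edgeR (adjusted p = 0.317), -0.85 without mitochondrial genes and Gm42418 (limma adjusted p = 0.0517), -0.81 with no filter (0.147), -0.87 with the replicate block (0.0508) and -0.82 without Fgfr2+/+ bone replicates 1 and 2 (1.00). With 1 library left out it was -0.93 to -0.79, with 0 to 1 members passing. It no longer passed without any 1 Fgfr2+/S252W bone library, Fgfr2+/+ bone replicate 1 or 2, Fgfr2+/S252W MC replicate 1 or 2, condylar replicate 2 of either genotype, or Fgfr2+/+ MC replicate 3. The interaction between bone and MC had 1 member with DESeq2, where 94 genes passed, and 1 with quality weights, where 10 did.

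The members that differed between condylar cartilage and MC numbered 5 to 9 with 1 library left out, where 4395 to 5251 of all genes passed. They numbered 5 without Fgfr2+/+ MC replicate 1 (4996 of 11272 genes) or condylar replicate 3 (4807 of 11303), with Dlk1 and Meg3 not kept. In the other tissue comparisons they numbered 6 to 7. There 2951 to 4365 genes passed for bone minus MC and 3406 to 4619 for bone minus condylar cartilage. With no filter the median over a set of 11095 genes moved from 0.028 to 0.15 (bone minus MC) and from 0.023 to 0.13 (condylar cartilage minus MC).

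Sign changes concerned values near 0, except for Meg3 and the bone comparison without Fgfr2+/+ replicates 1 and 2. Between genotypes in MC they were Peg3 (-0.0037 with edgeR, -0.11 with quality weights, -0.012 in MC alone, -0.0017 with the replicate block in MC alone) and, with no filter, Igf2 (0.013) and Grb10 (-0.046). In condylar cartilage it was Peg3 (-0.082 with quality weights). In bone without Fgfr2+/+ replicates 1 and 2 they were H19 (0.21), Igf2 (0.062), Meg3 (0.23) and Ndn (0.093). Between tissues they were Meg3 for bone minus condylar cartilage (-0.017 with edgeR, -0.035 with DESeq2, -0.62 with the replicate block, -0.96 without Fgfr2+/+ bone replicates 1 and 2), H19 for condylar cartilage minus MC (0.031 with filterByExpr, 0.067 with no filter) and Grb10 for bone minus MC (0.0048 with no filter). With 1 library left out, the genotype difference in MC ranged from -0.15 to 0.15 for Peg3, -0.033 to 0.22 for Cdkn1c, -0.29 to 0.12 for Igf2, -0.082 to 0.17 for Grb10 and -0.079 to 0.41 for Plagl1. In condylar cartilage it ranged from -0.048 to 0.17 for H19, -0.060 to 0.38 for Mest, -0.15 to 0.11 for Cdkn1c, -0.054 to 0.14 for Peg3 and -0.16 to 0.045 for Plagl1. The tissue differences that changed sign ranged from -0.063 to 0.022 for H19, -0.19 to 0.059 for Grb10 and -1.17 to 1.27 for Meg3.

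Deviations of same-numbered libraries of the genotypes correlated at 0.068 in bone, 0.13 in condylar cartilage and -0.090 in MC on average, so the replicate numbers were not taken as a pairing. With the embryo as a random block the correlation was -0.025.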
